A study of Macaca mulatta with 24 samples.

Results

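The genes ARHGEF7, NBEA, KIRREL3, JAKMIP1, LRP5 and GPR39 were examined together because the study discusses them in connection with DNA methylation in macaques that drank ethanol. The 6 symbols were matched by name to the 17208 rows of the deposited expression table, and each matched 1 row. The study tested these same animals and reported ARHGEF7 and NBEA lower in heavy drinkers than in controls, with KIRREL3 and JAKMIP1 tending lower. By quantitative PCR it also reported lower ARHGEF7 and lower transcript variants of KIRREL3 and JAKMIP1. A lower level of these genes here would therefore not be independent evidence. Methylation itself was not part of these data. Genomic positions and sequences are not given, since no genome of the build the authors used was at hand.

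RNA-Seq had been run on the nucleus accumbens (NAcc) core of 24 unrelated adult male rhesus macaques, with 1 library per animal. The 8 LD* animals, which the labels call LD and the study describes as low and binge drinkers combined, drank between 0.47 and 2.07 g/kg per day (median 1.82). The 8 HD* animals drank between 2.74 and 3.78 g/kg per day (median 3.09) and comprised 4 heavy (HD) and 4 very heavy (VHD) drinkers, whose ranges met at 3.09 g/kg. The 8 controls had the same training, housing and schedule-induced drinking, but were offered water at both spouts and a maltose dextrin solution to match calories. Drinkers set their own intake during a year of open access to ethanol and water, so a drinking category was not assigned to an animal by the experimenter. Tissue was taken without imposed abstinence as a small punch that avoided the shell and the white matter above. The controls were split over cohorts 5 (3 animals), 7a (2) and 7b (3). LD* animals belonged to cohorts 4 (2 animals), 7a (3) and 7b (3), and HD* animals to cohorts 5 and 7a, with 2 HD and 2 VHD animals in each.

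The 6 genes act in different parts of a neuron. ARHGEF7 encodes beta-PIX, an exchange factor for the small GTPases RAC1 and CDC42 that binds GIT scaffolds and PAK kinases at synapses. NBEA encodes neurobeachin, a BEACH-domain protein that anchors type II protein kinase A and takes part in the trafficking of receptors to the synapse. JAKMIP1 encodes a coiled-coil protein that binds the GABA-B receptor, JAK kinases and microtubules. KIRREL3 encodes a nephrin-like adhesion molecule of the immunoglobulin superfamily, which takes part in target-specific synapse formation. LRP5 encodes a co-receptor for Wnt ligands, and GPR39 encodes a zinc-sensing G protein-coupled receptor of the ghrelin receptor family. DNA methylation near a promoter is commonly linked to lower transcription, and within a gene body to the choice of transcript. The values here are for whole genes, so transcript variants could not be told apart.

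A set of 5 libraries stood apart from the rest, and they bear on what follows. Ribosomal protein genes (81 symbols) held between 15.4% and 18.1% of the expression of 4 animals, namely LD* 5, Control 8, HD* 6 and HD* 8, and between 7.60% and 12.8% in the other 20. Control 6 had the lowest score for markers of striatal projection neurons, the main neurons of the tissue, with 8.14 TPM of the dopamine receptor gene DRD1 against at least 53.4 TPM in every other animal. It also had the highest score for oligodendrocyte markers. None of the 12 striatal projection neuron markers was at 0 in any animal, the lowest value being 4.66 TPM of FOXP1. In bulk tissue, fewer cells of a type and less RNA per cell cannot be told apart. Expression is given as TPM, a share of all transcripts scaled to gene length, so read depth per value is unknown and no counting error is given.

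JAKMIP1 was the most highly expressed of the 6 genes in every animal. Its mean was 159 ± 42.7 TPM (SD, n = 24), higher than 93.0% of all rows. NBEA (57.1 ± 20.9 TPM), KIRREL3 (47.5 ± 13.5 TPM) and ARHGEF7 (44.4 ± 9.57 TPM) were close to one another. NBEA lay above KIRREL3 in 15 of 24 animals and ARHGEF7 above KIRREL3 in 10 of 24, so the order of these neighbours was not fixed. LRP5 followed at 8.45 ± 2.05 TPM. GPR39 was the lowest in every animal at 0.822 ± 0.369 TPM, below the 1 TPM that the study required for a gene to be tested. The spread between animals differed among the genes, from a coefficient of variation of 21.6% for ARHGEF7 to 44.8% for GPR39.

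**Figure D1:**
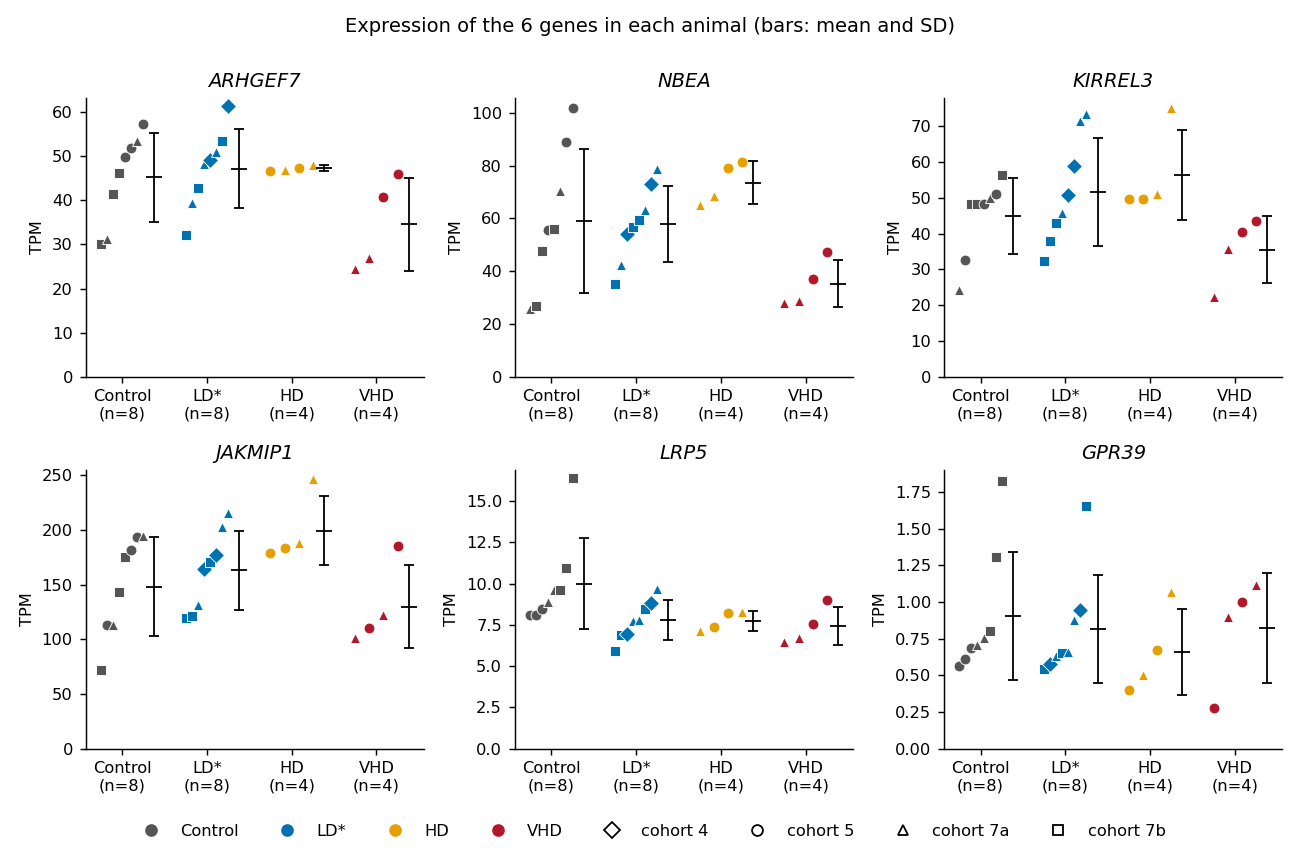
Expression of the 6 genes in TPM (vertical axes, from 0) in each of the 24 animals by category (horizontal axes), with marker shapes for the 4 cohorts and bars for the mean and SD. NBEA runs from 28.1 to 47.2 TPM in the 4 VHD animals and from 65.0 to 81.4 TPM in the 4 HD animals, while controls span both ranges.

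The first question was whether any of the 6 genes differed between heavy drinkers and controls. None did after adjustment, and the same held for LD* animals against controls and for HD* against LD* animals. The largest difference was in LRP5, which averaged 75.9% of the control level in HD* and 77.7% in LD* animals. The tests were made with limma on log2(TPM + 1) over the 13637 genes averaging 1 TPM or more, with Benjamini-Hochberg adjustment, and GPR39 was tested by exact permutation. At an adjusted p of 0.05, 0 of 13637 genes (0%) were called for HD* against controls, 0 (0%) for LD* against controls and 0 (0%) for HD* against LD*. At an unadjusted p of 0.05 limma gave 775, 387 and 147 genes in these 3 comparisons. Of the 775, 721 were lower in HD* animals, and the log2 fold changes of all tested genes had a median of −0.12. With TMM factors, which trim extreme genes before scaling each library, that median was 0.00, and 206 genes were lower and 310 higher. The control animals are shared by the first 2 comparisons. The study's own test of counts did call genes for HD* against controls and for HD* against LD*. It called ARHGEF7 and NBEA lower in HD* animals than in controls. KIRREL3 and JAKMIP1, described there as tending lower, had log2 fold changes of 0.01 and 0.16 here. Why the results differ was not tested.

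ARHGEF7 ranged from 30.2 to 57.3 TPM in controls (median 48.0), from 32.1 to 61.2 in LD* (median 48.6) and from 24.4 to 48.1 in HD* animals (median 46.4). The groups overlapped through most of their ranges, and the lowest values of HD* animals came from HD* 8 and HD* 6. The log2 fold change for HD* against controls was −0.15 ± 0.16 (SE, limma adjusted p = 0.748). It was −0.02 after TMM rescaling, and −0.22 ± 0.16 for HD* against LD* (adjusted p = 0.937).

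Within cohort 5 the 4 HD* animals ranged from 40.8 to 47.4 TPM of ARHGEF7 and the 3 controls from 49.8 to 57.3. Every HD* animal was therefore below every control of that cohort, with a mean of 85.3% of the controls' (exact permutation test, two-sided, p = 0.0286, the smallest that 4 against 3 animals allow). The same complete separation within cohort 5 was found in 2.55% of all genes tested. In cohort 7a the groups overlapped, with 24.4 to 48.1 TPM in 4 HD* animals and 31.2 and 53.4 TPM in 2 controls (exact permutation test, p = 0.467). The difference between the 2 cohorts' effects was 0.00 ± 0.38 on the log2 scale (limma interaction, adjusted p = 1.00).

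NBEA varied more between animals than between groups. Controls ranged from 25.6 to 101.7 TPM (median 55.7), LD* animals from 35.3 to 78.7 (median 58.1) and HD* animals from 28.1 to 81.4 (median 56.1). Controls held both the lowest and the highest animal of the series. The log2 fold change for HD* against controls was −0.08 ± 0.27 (limma adjusted p = 0.909), and its sign turned with TMM rescaling (0.05). In cohort 5 the HD* mean was 74.6% of the control mean, and in cohort 7a it was 99.0% (exact permutation tests, p = 0.314 and 0.867).

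JAKMIP1 ranged from 72.1 to 194 TPM in controls (median 159), from 120 to 216 in LD* (median 168) and from 101 to 246 in HD* animals (median 181). Medians were thus higher in both drinking groups, within wide overlap. The log2 fold changes against controls were 0.16 ± 0.20 in HD* (limma adjusted p = 0.771) and 0.17 ± 0.20 in LD* animals (adjusted p = 1.00). The lowest control, at 72.1 TPM, was Control 6, the animal lowest in striatal markers. Without it the difference between HD* animals and controls was 0.02.

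KIRREL3 ranged from 24.2 to 56.2 TPM in controls (median 48.3), from 32.3 to 73.5 in LD* (median 48.3) and from 22.3 to 75.2 in HD* animals (median 46.5). The 3 medians were close to each other. Only LD* 7, LD* 8 and HD* 5 exceeded 70 TPM, and all 3 were from cohort 7a. The log2 fold change was 0.01 ± 0.21 for HD* (limma adjusted p = 0.991) and 0.19 ± 0.21 for LD* animals against controls (adjusted p = 1.00). The LD* difference had opposite signs in the 2 cohorts that held both groups, and the difference between these cohorts was not tested. LD* animals averaged 171% of the control mean in cohort 7a and 74.2% in cohort 7b, where all 3 LD* animals were below all 3 controls (exact permutation tests, p = 0.30 and 0.10, the latter the smallest that 3 against 3 allow). That separation within cohort 7b was found in 6.14% of all genes tested.

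LRP5 was lower in both drinking groups than in controls before adjustment and not after it. Controls ranged from 8.07 to 16.4 TPM (median 9.23), LD* animals from 5.91 to 9.66 (median 7.76) and HD* animals from 6.49 to 9.01 (median 7.45). The lowest control was above 5 of 8 animals in each drinking group, and Control 6 was above every other animal. On the log2 scale LRP5 differed by −0.33 ± 0.12 in HD* (limma adjusted p = 0.706) and by −0.31 ± 0.12 in LD* animals (adjusted p = 1.00). LRP5 was thus among the 5.29% of all genes that were lower in HD* animals, and among the 2.54% lower in LD* animals, at an unadjusted p under 0.05. Exact permutation tests gave p = 0.00435 for HD* and 0.0211 for LD* animals. These tests pooled the cohorts. The controls of cohort 7b, which held no HD* animals, were the 3 highest controls (9.61, 10.9 and 16.4 TPM).

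The LRP5 difference was not even across cohorts. In cohort 5 the HD* mean was 98.0% of the control mean (exact permutation test, p = 0.714). In cohort 7a it was 77.4%, with all 4 HD* animals (6.49 to 8.25 TPM) below both controls (8.88 and 9.58 TPM; exact permutation test, p = 0.0667, the smallest possible), as in 7.77% of all genes tested. In cohort 7b the LD* mean was 57.5% of the control mean, and all 3 LD* animals were below all 3 controls (exact permutation test, p = 0.10, the smallest possible). That separation was found in 6.14% of all genes tested, and these controls included Control 6, at 16.4 TPM. Without Control 6 the log2 fold change was −0.23 for HD* and −0.21 for LD* animals, and without the 5 libraries apart it was −0.16 and −0.15. The HD* effect in cohort 7a minus that in cohort 5 was −0.30 ± 0.24 (limma interaction, adjusted p = 1.00). TMM rescaling gave −0.21 for HD* (limma adjusted p = 0.906).

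GPR39 was low in every group. It ranged from 0.564 to 1.83 TPM in controls (median 0.731), from 0.544 to 1.66 in LD* (median 0.655) and from 0.277 to 1.12 in HD* animals (median 0.787). The ranges overlapped, and the highest control was again Control 6. The difference in mean log2(TPM + 1) was −0.13 for HD* and −0.06 for LD* animals against controls (exact permutation tests, p = 0.403 and 0.672). Cohort 7b held the 3 highest animals, namely Control 6, LD* 4 and Control 4, with 1.31 TPM or more. The effect of cohort did not pass (limma F test of the no-filter fit, adjusted p = 0.595).

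**Figure D2:**
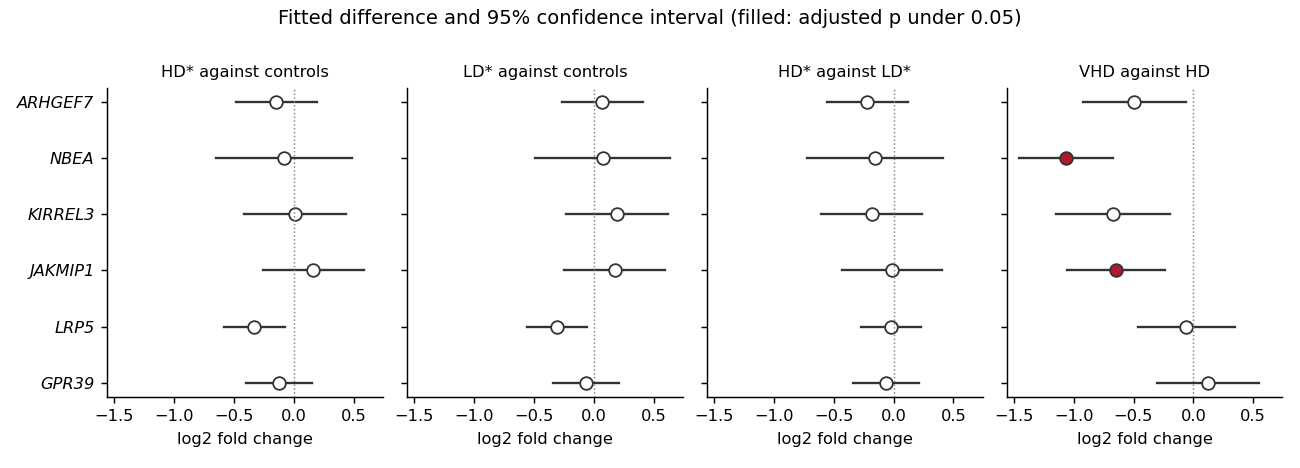
Log2 fold change (horizontal axes) of each gene (rows) in 4 comparisons, with lines for the 95% confidence interval and filled points for an adjusted p under 0.05. Intervals for HD* or LD* against controls include 0 except those of LRP5, and only NBEA (−1.06) and JAKMIP1 (−0.64) are filled, in VHD against HD. GPR39 is drawn from the fit without a filter on low values.

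The second question was whether the 6 genes differed inside the HD* group, between very heavy and heavy drinkers. NBEA fell to 48.0% of the HD mean in VHD animals, and JAKMIP1 fell to 65.1%. KIRREL3 stood at 63.0% and ARHGEF7 at 73.0% without passing in the limma fit. LRP5 stood at 96.0% and GPR39 at 125%, and neither passed. In the limma fit of the 8 HD* animals, 2 of the 5 genes tested were called lower and 0 higher. Over all 13637 genes, 1556 (11.4%) were called lower and 441 (3.23%) higher, and the median log2 fold change was −0.17. That median was −0.02 after TMM rescaling, with 1583 genes lower and 1065 higher.

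NBEA was 79.2 and 81.4 TPM in the HD animals of cohort 5 and 65.0 and 68.4 in those of cohort 7a. It was 37.0 and 47.2 TPM in the VHD animals of cohort 5 and 28.1 and 28.7 in those of cohort 7a. The 2 categories did not overlap in either cohort. NBEA fell by 1.06 ± 0.18 on the log2 scale (SE, limma adjusted p = 0.0064), and every VHD animal was below every HD animal (4 of 4; exact permutation test, two-sided, p = 0.0286, the smallest that 4 against 4 allow). Such a complete separation, with VHD below HD, was found in 17.9% of all genes. NBEA was also called without each animal in turn, with adjusted p between 0.0024 and 0.0327. Without the ribosome-rich HD* 6 and HD* 8 the log2 fold change of NBEA was −0.79 (limma adjusted p = 0.0334). That fit kept only the 2 VHD animals of cohort 5, against HD animals of cohorts 5 and 7a, so category and cohort were no longer balanced.

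JAKMIP1 was 179 and 184 TPM in the HD animals of cohort 5 and 246 and 188 in those of cohort 7a. It was 185 and 110 TPM in the VHD animals of cohort 5 and 122 and 101 in those of cohort 7a. HD* 1, a VHD animal at 185 TPM, lay inside the HD range. JAKMIP1 fell by 0.64 ± 0.19 on the log2 scale (limma adjusted p = 0.0403), and the exact permutation test gave p = 0.0857. The call was lost without HD* 2, HD* 3, HD* 5, HD* 6, HD* 7 or HD* 8, with log2 fold changes from −0.69 to −0.54 and adjusted p up to 0.13, and with TMM rescaling (−0.47, limma adjusted p = 0.13).

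KIRREL3 was 49.6 and 49.6 TPM in the HD animals of cohort 5 and 75.2 and 50.9 in those of cohort 7a. The VHD animals had 40.5 and 43.4 TPM in cohort 5 and 35.8 and 22.3 TPM in cohort 7a. The categories did not overlap (exact permutation test, p = 0.0286, the smallest possible), as in 17.9% of all genes. The gap between the highest VHD and the lowest HD animal was small in cohort 5. The log2 fold change was −0.67 ± 0.22 (limma adjusted p = 0.0581).

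ARHGEF7 was between 46.7 and 48.1 TPM in the 4 HD animals, a coefficient of variation of 1.27%. In VHD animals it was 40.8 and 46.0 TPM in cohort 5 and 26.8 and 24.4 TPM in cohort 7a. All 4 VHD animals were below all HD animals (exact permutation test, p = 0.0286, the smallest possible), as in 17.9% of all genes. The gap was small in cohort 5 and larger in cohort 7a, where the VHD mean was 53.9% of the HD mean. The log2 fold change was −0.49 ± 0.20 (limma adjusted p = 0.111). Without HD* 4 it was −0.64 (adjusted p = 0.0168), and KIRREL3 also passed without that animal (−0.78, limma adjusted p = 0.0187).

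LRP5 was 8.23, 7.36, 7.12 and 8.25 TPM in HD animals and 7.53, 9.01, 6.49 and 6.71 TPM in VHD animals, with log2 fold change −0.06 ± 0.19 (limma adjusted p = 0.853). GPR39 was 0.675, 0.398, 0.499 and 1.07 TPM in HD and 0.277, 0.999, 1.12 and 0.899 TPM in VHD animals (difference 0.13 on the log2 scale, exact permutation test, p = 0.543). Both genes overlapped between the categories, with 95% intervals of the log2 difference from −0.46 to 0.35 for LRP5 and from −0.30 to 0.55 for GPR39.

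Several of the cell type marker lists and the ribosomal protein genes differed between the same 8 animals. The 12 striatal projection neuron markers summed to between 9531 and 11112 TPM in HD and between 3638 and 6420 TPM in VHD animals, and all 12 had a lower median in VHD. Pan-neuronal markers (8 of 8 lower in median) summed to between 3768 and 4519 TPM in HD and between 2143 and 3729 in VHD animals. The 8 astrocyte markers summed to between 2187 and 3858 TPM in HD and between 4921 and 7817 in VHD animals, with 7 of 8 higher in median. Ribosomal protein genes held 7.70% to 8.89% of TPM in HD and 10.7% to 18.1% in VHD animals. The 7 microglia markers summed to between 275.1 and 361.9 TPM in HD and between 361.9 and 632 TPM in VHD animals, with 6 of 7 higher in median and no overlap, though the ranges nearly met. The 5 endothelial and the 5 cortical excitatory neuron markers were all lower in median in VHD animals, with overlapping sums. The 10 oligodendrocyte markers also overlapped, with sums of 2554 to 4362 TPM in HD and 2495 to 5291 in VHD animals. Of these 10, 6 were lower in median in VHD. Like the microglia sums, the striatal, pan-neuronal and astrocyte sums and the ribosomal share did not overlap between the categories. The part of these measures in the differences of NBEA, JAKMIP1, KIRREL3 and ARHGEF7 therefore cannot be told apart from drinking category in 8 animals. The astrocyte score, centred for each gene, did overlap (HD up to −0.021, VHD from −0.22). So did the microglia score (HD up to 0.060, VHD from −0.064).

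With the pan-neuronal, ribosomal protein or striatal score added to the model, 0 of the 5 genes tested were called. With the pan-neuronal score the log2 fold change was −0.74 for NBEA and 0.16 for ARHGEF7. It was −0.57 and 0.47 with the ribosomal protein score, and −0.49 and −0.58 with the striatal score. The median log2 fold change of all tested genes was 0.19, 0.36 and −0.48 in these 3 fits, against −0.17 without a score. Each of these 3 scores separated HD from VHD animals completely, so these fits cannot tell score from category. The number of genes called over the whole table dropped from 1997 to 3, 1 and 0 in these 3 fits. With the oligodendrocyte score, which overlapped between the categories, it was 2257. That number also moved without single animals, to 1094 without HD* 2, 681 without HD* 3, 4651 without HD* 4, 607 without HD* 5, 476 without HD* 6 and 723 without HD* 7.

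**Figure D3:**
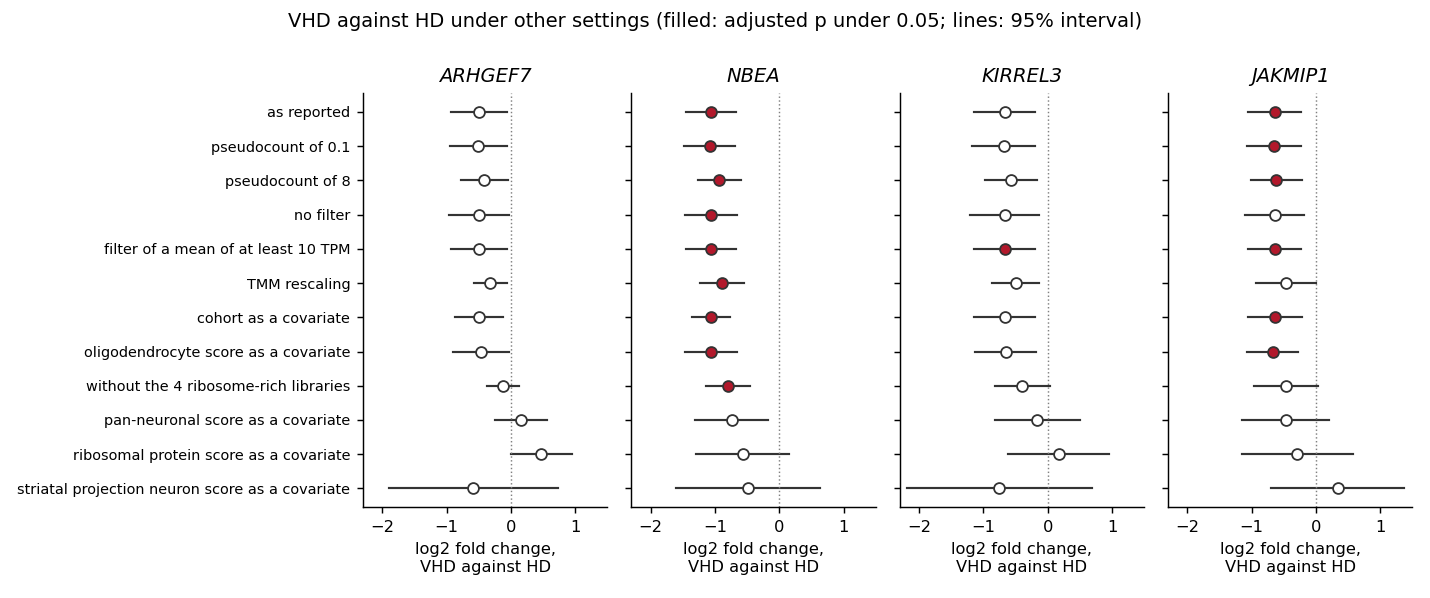
Log2 fold change of VHD against HD (horizontal axes) for 4 genes under the reported setting and 11 others (rows), with lines for the 95% confidence interval and filled points for an adjusted p under 0.05. NBEA is filled in 9 of 12 rows, and the rows with the pan-neuronal, ribosomal protein or striatal score have open points for all 4 genes.

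Across all 24 animals, ARHGEF7, NBEA, KIRREL3 and JAKMIP1 were lower where ribosomal protein genes held a larger share. The 5 libraries apart held the 5 lowest values of both ARHGEF7 (24.4 to 32.1 TPM) and NBEA (25.6 to 35.3 TPM). Pearson's r of log2(TPM + 1) with the ribosomal share was −0.83 for ARHGEF7, −0.80 for NBEA, −0.81 for KIRREL3 and −0.58 for JAKMIP1 (n = 24). Spearman's rho was −0.73, −0.84, −0.81 and −0.71. All 4 had an adjusted permutation p of 0.0103 or less for r and of 0.00096 or less for rho over 48 relations computed with 8 measures. Without the 2 animals farthest from the median share r was −0.69, −0.73, −0.75 and −0.51. Over the other 19 libraries it was −0.60, −0.79, −0.58 and −0.62.

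These correlations were not equal in every cohort. In cohort 7a (n = 9) r ran from −0.98 to −0.90 for these 4 genes, in cohort 5 (n = 7) from −0.84 to −0.49, and in cohort 7b (n = 6) from −0.62 for KIRREL3 to 0.07 for JAKMIP1. For comparison, the median r of all 13637 genes with the ribosomal share was −0.42, and 37.9% of them were at or below −0.6. LRP5 (r = −0.26, rho = −0.06) and GPR39 (r = 0.06, rho = 0.27) had adjusted permutation p of 0.296 and 0.791 for r and 0.793 and 0.255 for rho.

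**Figure D4:**
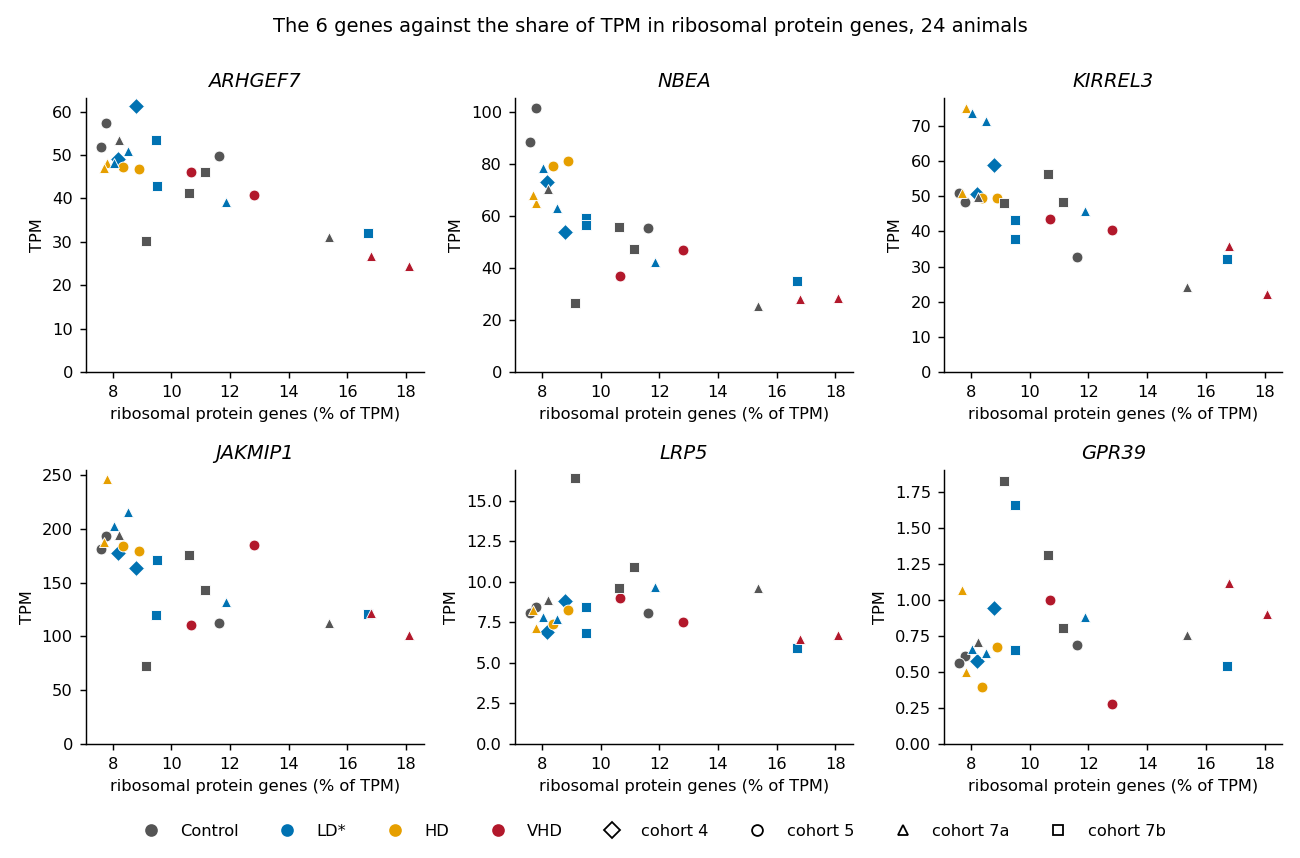
TPM of each of the 6 genes (vertical axes, from 0) against the percentage of TPM in 81 ribosomal protein genes (horizontal axes) in 24 animals, coloured by category with shapes for cohort. The 4 animals above 15% are low in ARHGEF7, NBEA, KIRREL3 and JAKMIP1, and one more low value of ARHGEF7 and NBEA, at 9.12% on the horizontal axis, is Control 6.

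The striatal projection neuron score separated the genes further. NBEA (r = 0.82, rho = 0.92) and JAKMIP1 (r = 0.89, rho = 0.81) were higher in animals with a higher score, with r between 0.86 and 0.98 in every cohort of 6 or more animals and 0.84 for both over the other 19 libraries (permutation p = 1e-05 for each r, the smallest that 100000 permutations give, adjusted p = 0.00012). ARHGEF7 was correlated with the score over 24 animals (r = 0.56, rho = 0.53, adjusted permutation p = 0.0146 for r) but had r = 0.10 over the other 19. KIRREL3 had r = 0.45 and rho = 0.66 (adjusted permutation p = 0.0616 and 0.00266). With the pan-neuronal score ARHGEF7 had r = 0.83 over 24 animals (adjusted permutation p = 0.00012) and 0.73 over the other 19 libraries. In the same 2 sets NBEA had 0.70 and 0.49, KIRREL3 0.71 and 0.31, and JAKMIP1 0.44 and 0.22. The r of all genes was computed for the ribosomal share alone. How common such r are among all genes for other scores, or for pairs of genes, is therefore not known. Over genes averaging 10 TPM or more, the first principal component, a pattern shared across genes, held 43.9% of the variance between animals.

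LRP5 and GPR39 ran the other way with the striatal score. GPR39 had r = −0.63 and rho = −0.59 with the striatal score (adjusted permutation p = 0.00694 and 0.00798), and r = −0.47 without the 2 farthest animals. LRP5 had r = −0.61 and rho = −0.29, with r = −0.06 without the 2 farthest animals and −0.51 over the other 19 libraries, so its r depended on which animals were left out. Within cohorts 5, 7a and 7b it was −0.33, −0.11 and −0.75. With the astrocyte score LRP5 had r = 0.57 and rho = 0.60 (adjusted permutation p = 0.0103 and 0.00798), with 0.52 in cohort 5, 0.49 in cohort 7a and 0.90 in cohort 7b. JAKMIP1 had r = −0.74 with that score, and −0.90, −0.78 and −0.68 in these cohorts.

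Among themselves, ARHGEF7 and NBEA had r = 0.83 (rho = 0.73), NBEA and JAKMIP1 0.80 (0.75) and KIRREL3 and JAKMIP1 0.69 (0.76), each with an adjusted permutation p of 0.001 or less for r over 15 pairs. Over the other 19 libraries these r were 0.46, 0.62 and 0.76. In cohort 7b KIRREL3 and JAKMIP1 had r = 0.18. LRP5 and GPR39 had r = 0.58 (rho = 0.55, adjusted permutation p = 0.00718 for r) with 0.31 without the 2 animals farthest in LRP5 and 0.55 over the other 19 libraries. Within cohorts 5, 7a and 7b the r of LRP5 and GPR39 was 0.92, −0.11 and 0.72. The values of all 6 genes share a library, and in TPM a rise of some genes lowers the share of others.

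The genes whose pattern over the 24 animals was most like each of the 5 were found among the 9197 genes averaging 10 TPM or more. For ARHGEF7 they included SLC4A10 and TRIO (both r = 0.97), and for NBEA they were TANC2 (0.99), MYT1L and SGIP1 (both 0.98). DCLK3 (0.96), SMPD3 and ASPHD2 (both 0.95) were nearest to JAKMIP1. Those of KIRREL3 included CANT1 and EIF2B5 (both 0.92), and LRP5 was nearest to PATZ1, SLC44A2 (both 0.86) and TMEM51 (0.85). These r are descriptions across animals and carry no test.

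Intake of ethanol was compared with each gene within LD* and within HD* animals, because the intakes of these groups do not overlap. Of 12 relations, 0 passed after adjustment for r (lowest adjusted p = 0.759, exact permutation) and 0 for rho (lowest adjusted p = 0.317, exact permutation). In LD* animals the largest was that of ARHGEF7, lower at higher intake, with r = −0.67 and rho = −0.73 (exact permutation p = 0.0777 and 0.0459, n = 8). Without the 2 animals farthest from the median intake its r was −0.39. These 2, LD* 1 and LD* 2, had the lowest intakes of the group and were the only animals of cohort 4. Intake and cohort therefore cannot be fully told apart in this relation. The LD* animal with the lowest intake (LD* 2, 0.47 g/kg) had the highest ARHGEF7 of the series, 61.2 TPM, and the one with the highest intake (LD* 5, 2.07 g/kg), a ribosome-rich library, had the lowest of its group, 32.1 TPM. In HD* animals KIRREL3 had r = −0.52 and rho = −0.69 (exact permutation p = 0.18 and 0.0638, n = 8), ARHGEF7 −0.30 and −0.66 (exact permutation p = 0.457 and 0.0845), NBEA −0.49 and −0.62 (exact permutation p = 0.218 and 0.106) and JAKMIP1 −0.33 and −0.43 (exact permutation p = 0.427 and 0.286). Without the 2 animals farthest from the median intake these r were −0.85, −0.51, −0.65 and −0.93. Categories within HD* follow intake, so these are not independent of VHD against HD.

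**Figure D5:**
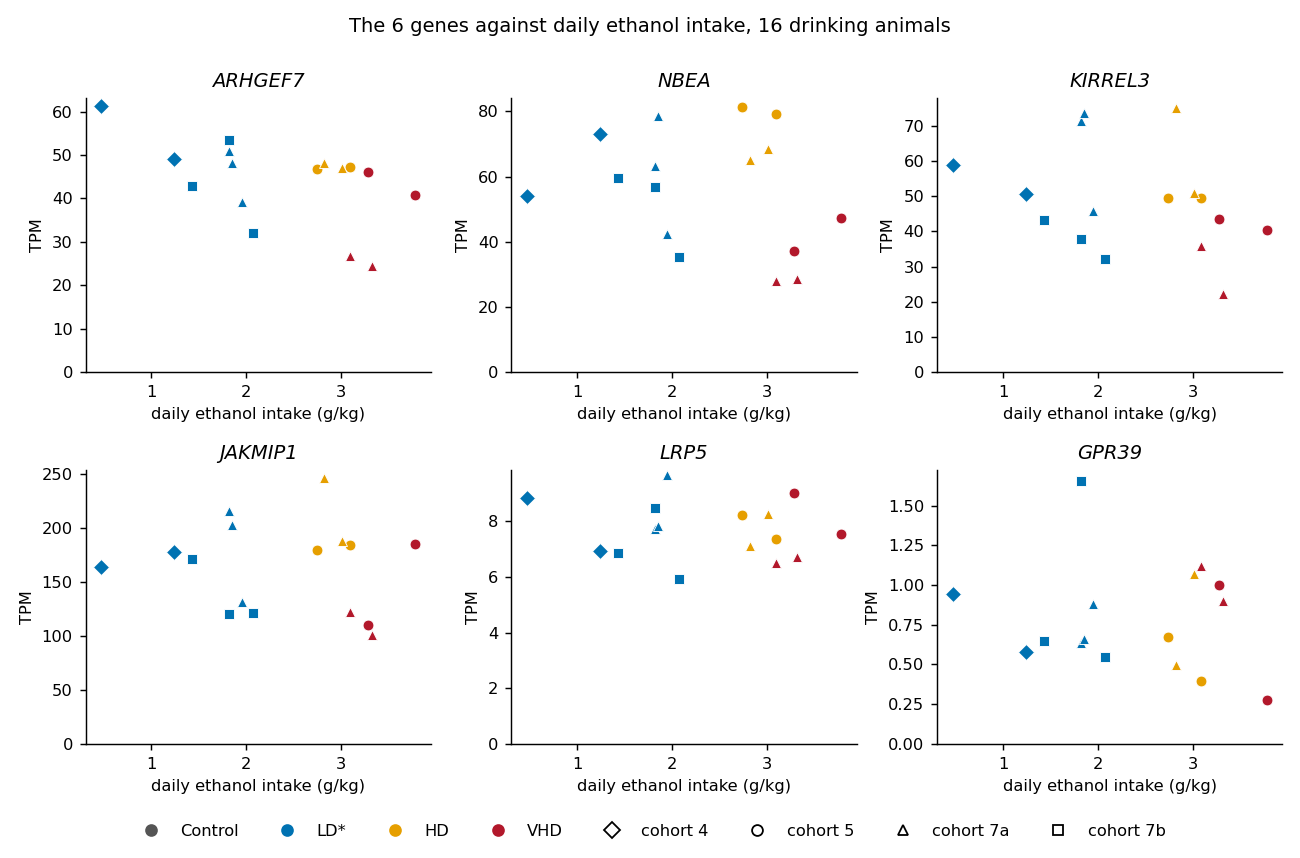
TPM of each of the 6 genes (vertical axes, from 0) against daily ethanol intake in g/kg (horizontal axes) in the 16 drinking animals, coloured by category with shapes for cohort. ARHGEF7 is highest at the lowest intake (61.2 TPM at 0.47 g/kg), and within each group no gene follows intake closely enough to pass the test.

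The known partners of each gene were examined as lists. No list held a called gene in HD* or LD* animals against controls or in HD* against LD* animals. For the partners of ARHGEF7 (PIX, GIT and PAK signalling) 14 genes were tested. In HD* animals 12 had a negative and 2 a positive log2 fold change against controls, with a median of −0.14 against −0.12 for all genes. The smallest p belonged to PAK2 (27.1 ± 6.70 TPM in HD* and 32.3 ± 3.26 in controls, SD, n = 8 each), a kinase that binds beta-PIX, and to the ubiquitin ligase gene CBL, with limma adjusted p = 0.706 for both. In VHD against HD animals 2 of 14 were called lower (11.4% of all genes), namely PAK1 (91.2 against 145 TPM, limma adjusted p = 0.0398) and PAK4 (29.0 against 41.6 TPM), and SCRIB, a polarity scaffold, was called higher (36.2 against 24.6 TPM). Genes named for VHD against HD were chosen after their values were seen.

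For BEACH-domain proteins and type II protein kinase A, 12 of 13 tested genes had a negative log2 fold change in HD* animals against controls, with a median of −0.13 against −0.12 for all genes, and 0 passed. The smallest p belonged to the BEACH protein gene WDFY3 (−0.31 ± 0.15) and the kinase regulatory subunit PRKAR2A (−0.41 ± 0.22). In VHD against HD animals the median was −0.41 against −0.17 for all genes, and 2 of 13 were called lower, against 11.4% of all genes. DLG3, which encodes the synaptic scaffold SAP102 that neurobeachin binds, fell from 96.4 to 46.3 TPM (limma adjusted p = 0.0059), and the catalytic subunit PRKACA fell from 166 to 105 TPM (limma adjusted p = 0.0238). Among the other BEACH genes, NBEAL1, NBEAL2, LRBA and LYST averaged between 1.95 and 8.12 TPM, WDR81 13.6, NSMAF 16.2 and WDFY3 31.3 TPM, all below NBEA, and none was called.

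For JAKMIP1's partners, the mean log2 value was below that of controls in 12 of 12 tested genes in HD* animals (median −0.21 against −0.12 for all genes), and 0 passed, with JAK1 (−0.25 ± 0.10) and FMR1 (−0.24 ± 0.13) having the smallest p. In VHD against HD animals 1 of 12 was called lower and 2 higher, against 11.4% and 3.23% of all genes. The GABA-B receptor subunit GABBR1 was the gene called lower, at 400.1 against 616 TPM (limma adjusted p = 0.0105). The kinesin heavy chain genes KIF5A (1354 against 733 TPM) and KIF5B (134 against 81.1 TPM) were called higher, opposite in direction to JAKMIP1. JAKMIP2 (8.55 TPM over 24 animals) and JAKMIP3 (11.1 TPM) were far below JAKMIP1 in level and were not called.

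For nephrin-like adhesion, 6 of 9 listed genes in the table were tested, all 6 had a negative log2 fold change in HD* animals against controls (median −0.18 against −0.12 for all genes), and 0 were called in any comparison. TJP1, a junction scaffold, had −0.37 ± 0.15, and the microtubule protein gene MAP1B −0.38 ± 0.26. KIRREL, a relative of KIRREL3, averaged 1.94 TPM, and KIRREL2 and NPHS1 were below 1 TPM. In VHD against HD animals the median was −0.52, with 5 of 6 lower.

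For canonical Wnt signalling, 40 genes were tested, of which 32 had a negative and 8 a positive log2 fold change in HD* animals against controls (median −0.14 against −0.12 for all genes, 0 passing). The Wnt secretion gene WLS (−0.38 ± 0.17) and LRP6, the other LRP co-receptor of the pathway (−0.37 ± 0.17), had the smallest p. LRP6 was 6.14 ± 1.68 TPM over the 24 animals, somewhat below LRP5. In VHD against HD animals 4 of 40 were called lower and 1 higher, close to the shares over all genes (11.4% and 3.23%). The secreted Dickkopf family gene DKK3 fell from 1474 to 764 TPM (limma adjusted p = 0.0057), the kinase gene GSK3A fell from 241 to 172 TPM, PORCN and CSNK1G1 were the other 2, and DVL1 was called higher (293 against 199 TPM).

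For zinc handling and the ghrelin receptor family, 20 of 24 genes were tested, of which 16 had a negative and 4 a positive log2 fold change in HD* animals against controls (median −0.18 against −0.12 for all genes, 0 passing). MTF1, the metal-responsive transcription factor, had −0.25 ± 0.11 and the zinc importer SLC39A1 −0.16 ± 0.09. GHSR, MLNR, NMUR1 and NMUR2 were below 1 TPM like GPR39, while NTSR2 averaged 150 TPM. In VHD against HD animals 2 of 20 genes were called lower and 1 higher, against 11.4% and 3.23% of all genes. SLC12A5, the neuronal chloride exporter, fell from 260.4 to 129 TPM (limma adjusted p = 0.0064), and the zinc exporter SLC30A4 fell from 10.5 to 5.59 TPM. MT3, the brain metallothionein, was called higher in VHD animals, at 2958 against 1961 TPM (limma adjusted p = 0.0499).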

How the data were processed

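RNA-Seq was performed on the NAcc core of 24 rhesus macaques, 1 library each. Per the labels and the study's methods, the authors prepared polyA-selected libraries, aligned reads to the MacaM assembly with STAR 2.5.2b and counted them per gene with HTSeq 0.6.1p1. The sources disagree on whether libraries were stranded and paired-end. The deposited values are TPM, although they were labelled as normalized counts, since each animal's values sum to between 999998 and 1000000. The step from counts to TPM, the gene lengths used and sequencing batches are not given in the sources used here. The authors tested counts with DESeq2, which was not used here because counts were not analysed here.

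Groups, categories, cohorts and intakes came from the labels, and replicate numbers follow accession order. P-values measure the spread between animals. Values were analysed as log2(TPM + 1), and fold changes are on that scale, which understates changes of low genes such as GPR39. Of all genes, 13637 averaged 1 TPM or more, and these were tested with limma 3.58.1 (R 4.3.3, trended variance) and Benjamini-Hochberg adjustment at 0.05. HD*, LD* and controls shared 1 fit, and VHD against HD was fitted on the 8 HD* animals. GPR39 was below the filter, so its limma values come from a fit without it. Single genes were tested by two-sided exact permutation of group labels (SciPy 1.17.1), and correlations over 24 animals by 100000 permutations. Scores are means over marker lists of log2(TPM + 1) values centred for each gene, not scaled by its SD. No 2 animals had identical values, and the code was tested on simulated data. Genes named are the 6 genes, the 3 nearest in pattern to each gene averaging 1 TPM or more (2 of these 15 are not reported here), and the 2 of each partner list with the smallest p in HD* against controls, and others are named as chosen after their values were seen. The genes and lists were chosen with earlier results of these data known.

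Alternatives were pseudocounts of 0.1 and 8, no filter, a filter of 10 TPM, TMM rescaling (trimming 30% and 5%), cohort or marker scores as covariates, and leaving out each animal.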

Additional observations from a re-analysis of the deposited data

Results flagged for a closer look

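Of 30 sets of animals examined (6 genes in controls, LD*, HD*, HD and VHD animals), 4 held an animal far from the others by Dixon's criterion, and chance alone would single out about 1 set in 20. LRP5 was 16.4 TPM in Control 6 against 8.07 to 10.9 TPM in the other 7 controls, and this animal was also the lowest in striatal projection neuron markers. KIRREL3 was 75.2 TPM in HD* 5 against 49.6 to 50.9 TPM in the other 3 HD animals. JAKMIP1 was 246 TPM in the same animal against 179 to 188 TPM in those 3. GPR39 was 1.66 TPM in LD* 4 against 0.544 to 0.944 TPM in the other 7 LD* animals, and this animal also had the highest summed cortical excitatory neuron markers, 872 TPM. What these markers contribute to the values was not tested.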

How the results depend on the processing

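No paired analysis was possible because the replicate numbers follow accession order and pair no animals. No gene was called for HD* or LD* against controls or for HD* against LD* under any alternative run with limma, where the reported setting gave 775, 387 and 147 genes at an unadjusted p under 0.05. Of the values recomputed, 302 kept their direction and side of the threshold and 46 changed sign. The fits with the ribosomal or striatal score and those without Control 6, without the 4 ribosome-rich libraries or without these 5 were chosen after seeing the data. Without the 4, VHD against HD kept VHD animals of cohort 5 alone. The cause of the changes was not tested.

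For HD* against controls, NBEA (−0.08) was 0.049 with TMM, 0.038 with the pan-neuronal score, 0.056 with the ribosomal score and 0.037 without the 4 libraries. KIRREL3 (0.01) was −0.040 with cohort, −0.0081 with the oligodendrocyte score and −0.079 with the striatal score, JAKMIP1 −0.011 with the striatal score, and GPR39 0.024 in cohorts 5 and 7a alone. For LD* against controls, ARHGEF7 was −0.023 with the striatal score, −0.0052 without Control 6 and −0.025 without the 5. NBEA was −0.036 with the oligodendrocyte score, −0.15 with the striatal score, −0.064 without Control 6 and −0.17 without the 5, and GPR39 was 0.040, 0.014, 0.022 and 0.052 in these 4 fits. For HD* against LD*, NBEA was 0.017 without the 4 or the 5. JAKMIP1 was 0.073 with TMM, 0.021 with the oligodendrocyte, 0.060 with the pan-neuronal and 0.075 with the ribosomal score, 0.098 without the 4 and 0.098 without the 5. LRP5 was 0.053 with TMM, 0.075 with cohort and 0.0069 with the pan-neuronal score, and GPR39 was 0.16 with cohort.

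For VHD against HD, the 1997 genes called became 3 with the pan-neuronal score, 1 with the ribosomal score, 0 with the striatal score (778 at an unadjusted p under 0.05 with limma) and 606 without the 4 libraries. NBEA was no longer called with these 3 scores (−0.74, −0.57 and −0.49), nor JAKMIP1 without a filter (−0.64), with TMM (−0.47), with the first 2 scores (−0.47 and −0.29) or without the 4 libraries (−0.46). KIRREL3 was called with a filter of 10 TPM (−0.67, limma adjusted p = 0.0445). Signs turned for ARHGEF7 with the pan-neuronal (0.16) and ribosomal score (0.47), KIRREL3 with the ribosomal score (0.17), JAKMIP1 with the striatal score (0.34), LRP5 with TMM (0.10), the pan-neuronal (0.23) and ribosomal score (0.33) and without the 4 (0.082), and GPR39 with the ribosomal (−0.049) and striatal score (−0.87) and without the 4 (−0.039). With TMM, r with intake was 0.039 for LRP5 and 0.028 for GPR39 in LD* and 0.32 for LRP5 in HD* animals.

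Leaving out each animal in turn gave, for VHD against HD, 476 to 4651 genes called, −0.64 to −0.35 for ARHGEF7, −0.78 to −0.47 for KIRREL3 and −0.83 to −0.54 for JAKMIP1. It gave −0.23 to 0.048 for NBEA and −0.11 to 0.14 for KIRREL3 in HD* against controls. For LD* against controls it gave −0.0052 to 0.14 for ARHGEF7, −0.074 to 0.21 for NBEA and −0.14 to 0.022 for GPR39, and for HD* against LD* −0.10 to 0.078 for JAKMIP1, −0.072 to 0.018 for LRP5 and −0.11 to 0.019 for GPR39. Read depth is not known per gene, so the counting error of GPR39, the lowest gene, cannot be given.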
